A study of Mus musculus with 60 samples.

Results

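The genes described here code for the proteins of the cytosolic ribosome, together with the processed pseudogenes copied from them. They were taken from the deposited table by symbol, as Rpl or Rps followed by a number, Rplp0 to Rplp2 and Rpsa, without the kinases of the Rps6k family. This gave 104 of 18088 rows, of which 86 form the gene arm and 18, with -ps in the symbol, form the pseudogene arm. All 86 genes and 17 of the 18 pseudogenes were at 10 or more normalised reads in at least 5 libraries and entered the tests. Rps13-ps4 did not, at 14.2 or less in every library. The symbol rule also took Rps19bp1, which codes for a protein that binds Rps19 and is no part of the ribosome. Rpl37rt and Rps4l, in the gene arm, are 2 members that the annotation calls transcribed processed pseudogenes, and 3 of the 18 -ps members (Rpl10-ps3, Rpl36a-ps1 and Rps12-ps3) are annotated as protein coding. Fau and Rack1, which code for ribosomal proteins under other names, fell outside the rule and are given apart.

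RNA was sequenced from prefrontal cortex of C57BL/6J mice at postnatal day 25. The mice either carried a single K228E allele of Tbr1, which encodes a regulator of cortical neuron identity (HT, labelled Tbr1+/K228E), or were wild type (WT). Through the milk of their mothers they had been given fluoxetine, a serotonin reuptake inhibitor, lithium, a mood stabiliser, or vehicle from day 3 to day 24. With both sexes this made 12 groups of 5 libraries, which share strain, age, tissue and route. No litter, dam or batch is named in the labels. Values are reads scaled by the size factor of their library, called normalised reads here, and came from 23930164 to 36515331 reads per library. Markers of cortical excitatory neurons were present throughout, with a mean log2 value of 9.65 to 11.8 per library. The 10 libraries of vehicle males stood apart from the other 50 across the transcriptome, and they are compared apart below. Since every vehicle male is among them and no drug-treated male is, treatment and whatever else sets these libraries apart cannot be told apart in males.

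Each ribosome holds a single copy of nearly every one of these proteins, split between a large (Rpl) and a small (Rps) subunit, and cells make the proteins in matched amounts. Much of that matching is set at translation, because the messages tend to start with a run of pyrimidines, the terminal oligopyrimidine tract, through which mTORC1 controls their use. Neurons draw on ribosomes in the soma, dendrites and axons. Short, abundant messages of this kind have often been copied back into the genome as processed pseudogenes, which lack introns and can be nearly identical to the parent message. Reads from such a copy and from its parent are then hard to assign.

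The copies in this table are close to their parents. Of the 18 pseudogenes, 10 were 100% identical to a parent transcript over the aligned length, 9 of them over the whole annotated model. The median share of a pseudogene's 31-base words that occur in another gene's transcripts was 98.6%, against 24.5% for the 86 genes. The pairs shown are 3 of the copies that were called higher in vehicle males, each with the first 120 bases of its reading frame or, for Rpl14-ps1, a stretch holding differences. Capitals mark bases that differ from the partner. Coordinates are of GRCm38, with Rps6-ps4 at chr2:75191703-75191822 (minus strand), Rps12-ps3 at chr19:59322371-59322490 (plus strand) and Rpl14-ps1 at chr7:45325268-45325387 (plus strand).
Rps6-ps4: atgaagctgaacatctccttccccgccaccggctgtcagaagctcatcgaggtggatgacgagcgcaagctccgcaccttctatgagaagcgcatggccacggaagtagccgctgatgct
Rps6: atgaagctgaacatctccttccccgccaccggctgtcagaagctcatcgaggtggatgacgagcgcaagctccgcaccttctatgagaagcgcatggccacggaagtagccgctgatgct
Rps12-ps3: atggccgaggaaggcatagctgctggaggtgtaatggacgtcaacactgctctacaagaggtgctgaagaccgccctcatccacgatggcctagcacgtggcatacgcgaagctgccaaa
Rps12: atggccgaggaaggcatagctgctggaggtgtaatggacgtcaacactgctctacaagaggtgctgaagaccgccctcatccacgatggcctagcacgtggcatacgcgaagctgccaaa
Rpl14-ps1: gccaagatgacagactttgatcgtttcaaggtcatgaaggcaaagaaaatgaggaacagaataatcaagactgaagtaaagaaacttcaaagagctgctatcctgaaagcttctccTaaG
Rpl14: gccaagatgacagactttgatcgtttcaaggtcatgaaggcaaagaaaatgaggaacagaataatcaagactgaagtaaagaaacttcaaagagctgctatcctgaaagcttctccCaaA
The first 2 pairs hold no capital, so that no read falling within these stretches can tell the copy from its parent. Over their full models, Rps6-ps4 (750 bases) and Rps12-ps3 (494 bases) carried no difference from the parent transcript, and Rpl14-ps1 (653 bases) carried 4 mismatches and 3 gap bases.

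The starts of the messages were searched for the oligopyrimidine tract, here a C followed by at least 4 bases that are C or T, read on the strand of the gene. RefSeq promoter sequences of GRCm38.p6 were matched for 65 of the 86 genes. The annotated start itself was such a C in 14 of them (21.5%), against 379 of 12632 genes of the table (3.00%). Within 5 bases of the start it was found in 30 of 65 (46.2%), against 23.8% of all genes. Windows of 30 bases around the start are shown for Rps6 and Rps24, which hold it (capitals). They are also shown for Rpl37 and Rpl5, in which these letters were not found within 5 bases of the annotated start. A tract at a start further from the annotated one would be missed, so genes without a match may still have one. Capitals run from the matching C nearest the annotated start, and a C stands directly before it in both windows. Their positions are chr4:86857353-86857382 (minus strand), chr14:24490663-24490692 (plus strand), chr15:5116598-5116627 (plus strand) and chr5:107900513-107900542 (plus strand).
Rps6: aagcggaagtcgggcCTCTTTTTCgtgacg
Rps24: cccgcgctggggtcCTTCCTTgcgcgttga
Rpl37: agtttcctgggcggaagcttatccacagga
Rpl5: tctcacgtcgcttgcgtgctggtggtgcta
Both genes that were lower (Rps6, Rpl37) and genes that were higher (Rps24, Rpl5) in vehicle males are among the 4, and the letters at the start are given as a description.

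Together the 86 genes took between 0.726% and 1.25% of the normalised reads of a library. Among males, the share was 0.906% ± 0.052 in HT and 0.910% ± 0.054 in WT mice on fluoxetine, 0.879% ± 0.076 in HT and 0.903% ± 0.068 in WT mice on lithium, and 0.783% ± 0.060 in HT and 0.852% ± 0.087 in WT mice on vehicle (SD, n = 5 each). Among females it was 0.853% ± 0.033 in HT and 0.828% ± 0.032 in WT mice on fluoxetine, 0.878% ± 0.056 in HT and 0.891% ± 0.061 in WT mice on lithium, and 0.972% ± 0.169 in HT and 0.984% ± 0.150 in WT mice on vehicle (SD, n = 5 each). HT vehicle males thus held the lowest group mean and the 2 vehicle female groups the highest, while WT vehicle males lay among the drug-treated females. Vehicle males and vehicle females overlapped, with 0.726% to 0.983% in vehicle males against 0.822% to 1.25% in vehicle females. A pair of vehicle female libraries, HT replicate 1 (1.25%) and WT replicate 3 (1.24%), lay above every other library. In bulk tissue, fewer cells of a type and less RNA per cell cannot be told apart. The pseudogene arm took 0.0177% to 0.0372% of normalised reads, with a median of 0.0291% in vehicle males, against 0.0272% in vehicle females and 0.0251% in drug-treated males.

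**Figure D1:**
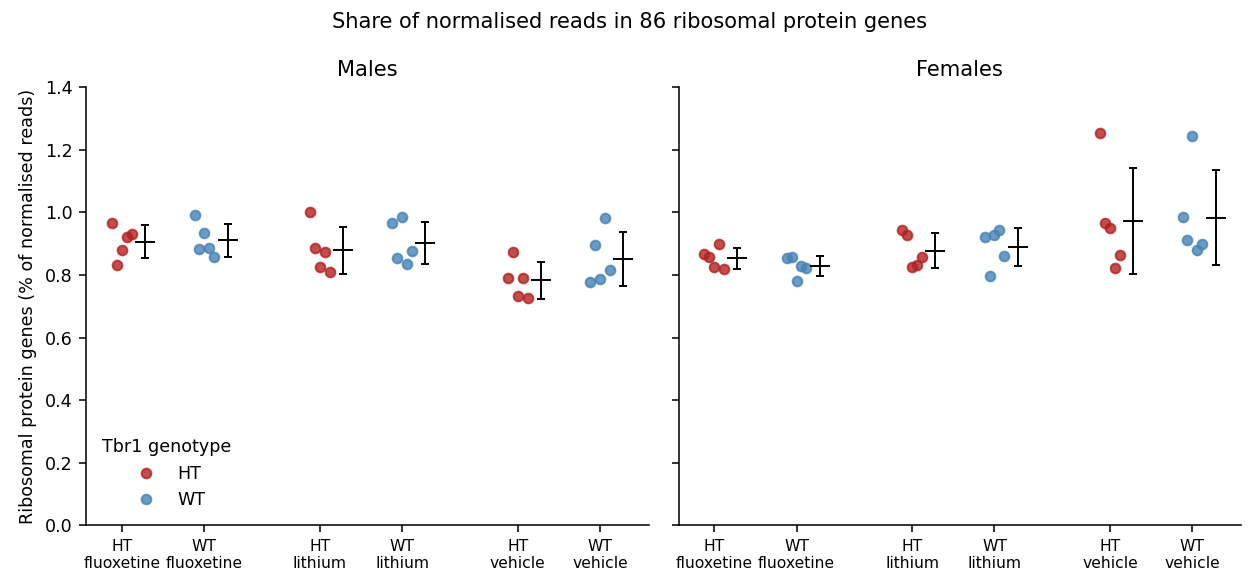
Share of normalised reads taken by the 86 ribosomal protein genes in each library (points, percent), by sex, treatment and Tbr1 genotype, with the mean and SD of each group of 5 beside it. Vehicle males lie between 0.726% and 0.983%, and the 2 highest points, 1.25% and 1.24%, are vehicle females.

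Within a group the median spread of the genes was below that of all genes, and their level was higher. Their median value was 2530 normalised reads, against 432 over all genes tested, and genes of like level were not compared. The median SD of log2 values within groups was 0.13 over the 86 genes and 0.51 over the 17 pseudogenes, against 0.18 over all 17781 genes tested. Rps27, a small subunit protein, was an exception, at 26.4 to 99.5 normalised reads in 50 libraries and 121 to 409 in the other 10, which come from 7 groups and include no vehicle male. Its near-identical copy Rps27rt, with which it shares 27.4% of its 31-base words, ranged from 629 to 1639, and their sum from 827 to 1705. The 2 rows are therefore uncertain taken singly. Rpl3l, the striated muscle form of Rpl3, stayed low, with medians of 6.31 to 7.32 normalised reads over vehicle males, vehicle females and drug-treated males and females. Rpl10l and Rpl39l were not analysed here.

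The first comparison asks whether one Tbr1 allele changed these genes. No member of either arm was called between HT and WT mice. With limma at an adjusted p below 0.05 the count was 0 of 86 genes and 0 of 17 pseudogenes among vehicle females, vehicle males, fluoxetine-treated mice of both sexes and lithium-treated mice of both sexes, and edgeR and DESeq2 on the recovered reads also called 0 of 86 and 0 of 17. The limma background was as low, with 0%, 0%, 0.0112% and 0.00562% of 17781 genes called in these 4 comparisons. At an unadjusted p below 0.05 the gene counts were 4, 2, 0 and 1, where 1347, 4151, 524 and 1489 of all 17781 genes lay below it, and the median log2 fold changes of HT over WT were 0.03, -0.04, 0.01 and 0.00. The smallest adjusted p of any member was 0.192, among vehicle males. The tests of whether a drug acted differently in HT and WT females called 0 of 86 for fluoxetine and 0 of 86 for lithium (limma, and also edgeR and DESeq2) and 0 of 17 pseudogenes for each, with 1 and 0 genes at an unadjusted p below 0.05, against 508 and 380 of all genes. In each, 0% of all genes were called with limma.

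The main difference lay between vehicle males and the other libraries. Against vehicle females, 53 of the 86 genes were lower in vehicle males and 8 were higher (limma, adjusted p below 0.05), where 26.4% of 17781 genes were called lower and 26.1% higher, 52.5% together. The median log2 fold change was -0.23 over the 86 genes and 0.00 over all genes. Both subunits took part, with 30 of 51 large subunit members lower and 5 higher, and 23 of 35 small subunit members lower and 3 higher. The values of 27 genes did not overlap between the 2 sets of 10 libraries, all 27 lower in vehicle males, where 6.13% of all genes were wholly lower and 7.01% wholly higher. Against all 50 other libraries, 15 genes were wholly lower in vehicle males (among them Rpl8, Rpl10a, Rpl29, Rpl31, Rpl36, Rpl37, Rpl37a, Rpl38, Rpl41, Rplp1, Rps14, Rps15, Rps18 and Rps28) and none was wholly higher, against 3.65% and 3.63% of all genes. Against drug-treated males alone, 23 genes were wholly lower in vehicle males and 1, Rpl5, wholly higher, where the figures for all genes were 6.11% and 6.06%.

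Among drug-treated mice the sexes did not separate in this way, and most of the small differences ran the other way. The log2 fold change of males over females was positive for 78 genes and negative for 8. Its median was 0.04 over the 86 genes and -0.004 over all genes. Males against females on either drug gave 0 of 86 genes called with limma, and likewise 0 with edgeR and with DESeq2, where 0.09% of all genes were called (0.0337% higher, 0.0562% lower). At an unadjusted p below 0.05 there were 8 genes, against 856 of all 17781, and no gene had values without overlap, against 0.0337% of all genes wholly higher and 0.0169% wholly lower. The difference between the sex effects was tested directly as an interaction. Of the 86 genes, 53 had a lower male-over-female ratio under vehicle than under the drugs and 4 a higher one, where 22.9% of all genes were called lower and 22.8% higher, 45.8% together.

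**Figure D2:**
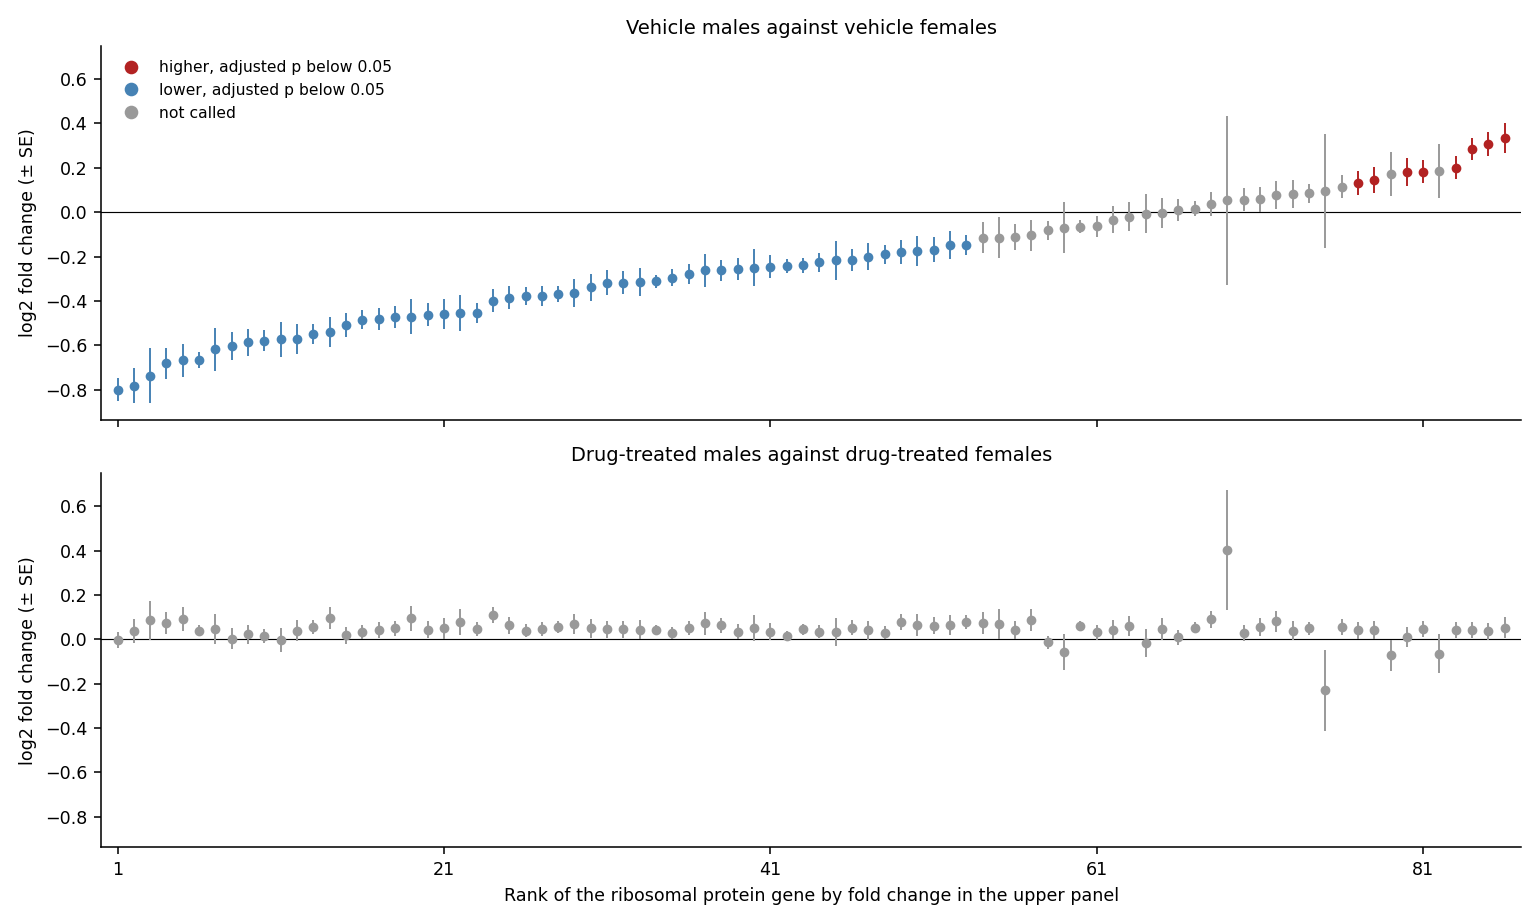
Log2 fold change, with its standard error, of each of the 86 ribosomal protein genes in vehicle males over vehicle females (top) and in drug-treated males over drug-treated females (bottom), ordered by the top panel along the x axis. In the top panel 53 genes are called lower (blue) and 8 higher (red), and in the bottom panel 0 are called.

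The stalk proteins Rplp0, Rplp1 and Rplp2 form the arm of the large subunit that recruits elongation factors. Rplp1 had 4620, 4734, 4199, 4664 and 3955 normalised reads in the HT vehicle males and 4635, 4884, 4119, 4019 and 4124 in the WT vehicle males, against a lowest, median and highest value of 5970, 7654 and 8739 in the 10 vehicle females, 7040 to 8761 in the 20 drug-treated males and 6865 to 8766 in the 20 drug-treated females. No vehicle male reached the lowest value of any other set. The log2 fold change of vehicle males over vehicle females was -0.80 (SE 0.05, limma adjusted p = 1.09e-18), and Rplp1 shares 72.5% of its 31-base words with a copy named Gm10073. Rplp2 was lower by the same comparison at -0.54 (adjusted p = 1.94e-09) and Rplp0 at -0.38 (adjusted p = 3.87e-10).

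Rpl37, a large subunit protein, had 1316, 1399 and 1546 normalised reads in vehicle males (lowest, median and highest), against 1988, 2223 and 2467 in vehicle females, and 2034 to 2537 in drug-treated males. The sets were far apart beside their spread, and Rpl37 had the smallest adjusted p of the gene arm (log2 fold change -0.67, SE 0.03, adjusted p = 8.01e-22). Rps28, a small subunit protein near the messenger exit site, had 571, 749 and 796 in vehicle males, against 1067, 1175 and 1647 in vehicle females (log2 fold change -0.78, adjusted p = 3.00e-12). Here too no vehicle male reached any other library, the lowest of which was 842.

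Rpl10, which joins the large subunit late in its assembly, had 656, 898 and 1207 normalised reads in vehicle males (lowest, median and highest), against 1099, 1537 and 1939 in vehicle females (log2 fold change -0.74, SE 0.12, adjusted p = 1.24e-06). These ranges overlap. Rpl10 shares its sequence with Rpl10-ps3, which had 2407, 2632 and 2844 in vehicle males against 2860, 2961 and 3295 in vehicle females. Their sum had 3066 to 3835 in vehicle males against 4121 to 4902 in vehicle females, so that the summed rows did not overlap (log2 fold change -0.35, adjusted p = 7.53e-13).

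Rpl24 had 1381, 1740 and 1949 normalised reads in vehicle males, against 2320, 2730 and 3430 in vehicle females, and Rpl36 had 754, 929 and 1037 against 1189, 1422 and 1943. Both are large subunit proteins, and their log2 fold changes were -0.68 (adjusted p = 5.38e-12) and -0.67 (adjusted p = 6.20e-11). Of the 31-base words of Rpl36, 94.1% occur in other genes. Rps6, the target of S6 kinase, was lower by -0.31 (SE 0.03, adjusted p = 3.79e-13), with 3160 to 3903 in vehicle males against 4224 to 4878 in vehicle females. The X-linked Rps4x (-0.28), Rpl41, which codes for the shortest ribosomal protein (-0.59), Rps29 (-0.57), Rpl36a (-0.46), Rps4l (-0.62), Rpl3 of the peptidyl transferase centre (-0.24) and Rpsa, also known as the laminin receptor (-0.19), were lower too, at adjusted p of 0.000115 or less. With the trend on GC content and length removed, described below, Rpsa stood at 0.04.

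Rpl5 and Rpl11, which bind 5S rRNA and can hold Mdm2 when ribosome assembly fails, went the other way. Rpl5 had 1307, 1559 and 2455 normalised reads in vehicle males (lowest, median and highest), against 1038, 1216 and 1631 in vehicle females, and 942 to 1294 in drug-treated males. Vehicle males lay wholly above drug-treated males and overlapped vehicle females (log2 fold change over vehicle females 0.33, SE 0.07, adjusted p = 4.62e-05). Gm15500, a row outside the rule that shares 25.2% of the 31-base words of Rpl5, had a median of 3821 in vehicle males and 3650 in vehicle females, and the 2 rows together had 5042 to 6198 in vehicle males against 4275 to 6290 in vehicle females. Rpl11 was 0.20 higher on the log2 scale (adjusted p = 0.00113).

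Rps24, a small subunit protein, had 4411, 4917 and 5501 normalised reads in vehicle males, against 3299, 3873 and 5178 in vehicle females (log2 fold change 0.31, SE 0.05, adjusted p = 2.13e-06). Rpl23 of the large subunit had 3406, 3754 and 4458 in vehicle males, against 2712, 3129 and 3725 in vehicle females (0.29, adjusted p = 3.81e-06). Rps7 and Rpl35 were each 0.18 higher (adjusted p = 0.00238 and 0.0141), and Rpl30 and Rps25 complete the 8 genes. With the trend on GC content and length removed, 4 of the 8 were not called, Rpl5 at 0.02, Rps24 at 0.12, Rpl30 at -0.03 and Rps25 at -0.11, while Rpl11 stood at 0.30, Rps7 at 0.31, Rpl35 at 0.42 and Rpl23 at 0.12 (adjusted p = 0.0402 or less). The paralogs Rpl22l1, Rpl7l1 and Rpl36al were not called. Rpl22, an RNA-binding protein of the large subunit, and its paralog Rpl22l1 had log2 fold changes of 0.08 and -0.01, Rpl7 and Rpl7l1 of 0.04 and -0.08, and Rpl36al of 0.11. Rps19bp1 stood at 0.01, with 301 to 359 normalised reads in vehicle males and 263 to 396 in vehicle females.

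**Figure D3:**
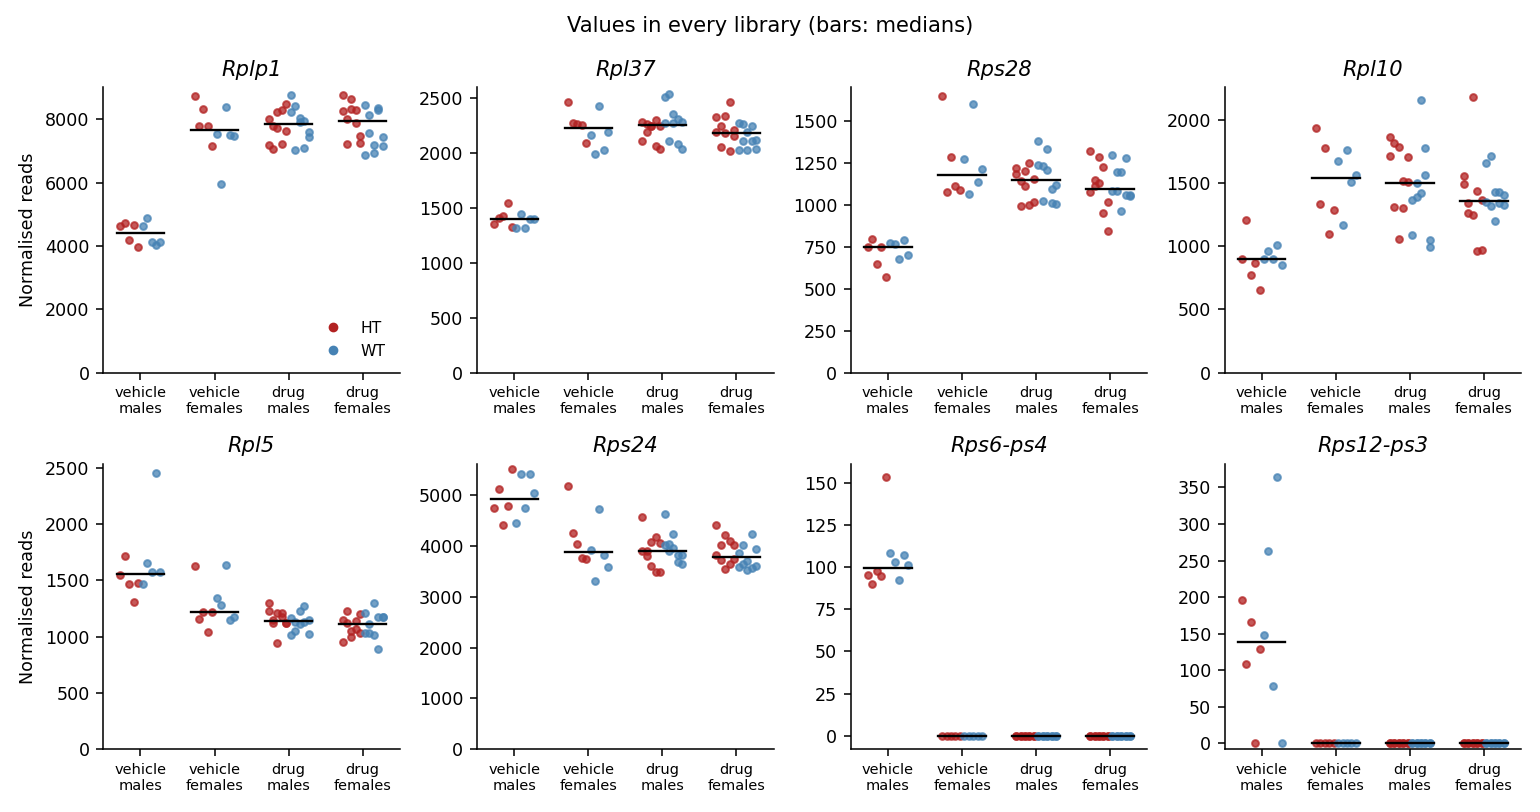
Normalised reads of 6 ribosomal protein genes and 2 pseudogenes in each of 60 libraries (points, coloured by genotype), by vehicle males, vehicle females, drug-treated males and drug-treated females, with medians as bars. Rplp1, Rpl37 and Rps28 are lower in every vehicle male than in any other library, and Rps6-ps4 is above 0 in vehicle males and listed at 0 in the other 50 libraries.

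The drug comparisons in males rest on the same vehicle libraries. In fluoxetine-treated over vehicle males 52 of 86 genes were higher and 11 lower, where 30.9% and 32.5% of all genes were called (63.5% together), and the median log2 fold change was 0.23. In lithium-treated over vehicle males 44 were higher and 14 lower, where 27.7% and 27.3% of all genes were called (55% together), with a median of 0.12. Of the 17 pseudogenes 2 were higher and 8 lower under fluoxetine, and 1 was higher and 7 were lower under lithium. Rplp1 had log2 fold changes of 0.87 under fluoxetine and 0.79 under lithium (adjusted p = 7.14e-20 and 2.18e-18). Rpl37 had 0.74 and 0.62, Rpl24 0.71 and 0.64, Rpl10 0.70 and 0.73, Rps28 0.68 and 0.65, and Rps4l 0.72 and 0.50. Within the gene arm the largest falls were those of Rpl5, -0.56 under fluoxetine and -0.43 under lithium (adjusted p = 8.88e-10 and 5.77e-07). Rps24 had -0.28 and -0.39, Rpl23 -0.29 and -0.33, Rps27rt -0.29 and -0.33, Rpl11 -0.25 and -0.31, and Rpl35 -0.22 and -0.33. With the trend on GC content and length removed, Rps27rt was not called, at 0.04 under fluoxetine and -0.02 under lithium, nor was Rps24 under fluoxetine (-0.11, adjusted p = 0.0771) or Rpl5 under lithium (-0.13, adjusted p = 0.143). With the bulb covariate described below, Rps27rt (-0.21, adjusted p = 0.197) and Rpl35 (-0.08, adjusted p = 0.267) were not called under fluoxetine. The comparisons share their vehicle males, so that likeness between them is not an independent result.

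Other measures moved with the vehicle males, in a comparison that called 26.1% of all genes higher and 26.4% lower. Mitochondrially encoded genes took 6.31% to 8.85% of normalised reads in vehicle males against 4.39% to 6.12% in vehicle females, and 14 of 15 were called higher. Across the 86 genes the fold change of vehicle males over vehicle females ran with transcript length (Spearman rho 0.32) and against GC content (rho -0.43), over genes that share their libraries. After the smooth trend of each library on GC content and length was taken out, 49 genes were called lower and 7 higher, while the share of all genes called dropped to 20.6%. The part of the mitochondrial share in the result was not tested. Markers of red cells differed as well, with 4 of 5 called lower and a mean log2 value with a median of 9.38 in vehicle males (highest 9.81) against 9.93 in vehicle females (lowest 9.32). Of 4 microglia markers 3 were lower and 1 higher (9.87 to 10.2 against 9.81 to 10.4). The part of these cells was not tested. Of the 7 olfactory bulb markers, 0 were called between vehicle males and vehicle females (limma; mean log2 value 7.71 to 11.1 against 5.13 to 10.9).

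Genes of the wider ribosome pathway went both ways. In vehicle males over vehicle females, 26.1% of all genes were called higher and 26.4% lower. Fau and Rack1 were lower in vehicle males than in vehicle females, at log2 fold changes of -0.47 and -0.43. Of 20 ribosome assembly factors 7 were higher and 8 lower (median 0.00), and Npm1, a nucleolar chaperone, was 0.42 higher. Of 10 RNA polymerase I genes 4 were higher and 4 lower. Of 15 other messages with an oligopyrimidine tract 3 were higher and 6 lower, with Eef2, the translocation factor, at -0.35 and Eef1a1 at -0.23. Among 12 mTORC1 genes 2 were higher and 9 lower, Mtor itself at -0.31. Mitochondrial ribosomal proteins, made in the cytosol for another ribosome, had 30 of 80 higher and 24 lower (median 0.02), so that their median lay with that of all genes.

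Of the 17 pseudogenes tested, limma called 7 between vehicle males and vehicle females (41.2%, against 52.5% of all genes). On the recovered reads edgeR called 9 and DESeq2 called 5, where they called 9491 and 9528 of all genes. With limma 6 were higher and 1 was lower in vehicle males, where 26.1% and 26.4% of all genes were called. Of these 6, 3 were identical to their parent. Rps6-ps4 had 95.5, 90.1, 97.7, 94.3 and 153 normalised reads in the 5 HT vehicle males and 108, 103, 92.4, 107 and 101 in the 5 WT vehicle males, and was listed at 0 in the other 50 libraries (limma adjusted p = 4.48e-44). The limma model pools the spread of all 12 groups, and the groups listed at 0 hold none. This p-value therefore does not measure the spread among vehicle males. Its parent Rps6 moved in the other direction, with a median of 3606 in vehicle males and 4337 in vehicle females. With both rows summed the family was still lower by -0.27 (adjusted p = 1.23e-11).

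Rps12-ps3 had 196, 109, 166, 0 and 129 normalised reads in HT vehicle males and 149, 262, 78.3, 364 and 0 in WT vehicle males, and was listed at 0 in all 50 other libraries (adjusted p = 4.97e-12). It was thus present in 8 of 10 vehicle males, and its limma p-value has the same limit as that of Rps6-ps4. On the recovered reads edgeR called it (adjusted p = 0.000125) and DESeq2 did not (adjusted p = 0.0937). Rps12 with its copy was lower by -0.38 on the log2 scale (adjusted p = 7.41e-05). How the authors' counting divides reads between identical copies is not given in the sources used here, so that each row of such a pair is uncertain taken singly.

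Rpl14-ps1 had 81.3, 141 and 179 normalised reads in vehicle males (lowest, median and highest), against 0 to 73.0 in vehicle females, and was listed at 0 in 28 of the 50 libraries that are not vehicle males (limma adjusted p = 0.000374, DESeq2 adjusted p = 0.199). Rpl15-ps3 had 241, 319 and 374 in vehicle males, against 0, 110 and 238 in vehicle females. Those values do not overlap, yet the limma test did not call it (adjusted p = 0.124), and it was at 0 in 11 of the 50 libraries. Rpl31-ps8 had 611, 735 and 1032 in vehicle males, against 257, 452 and 662 in vehicle females (log2 fold change 0.72, SE 0.17, adjusted p = 0.000297). Rps2-ps10 (0.48, adjusted p = 0.00962) and Rpl36a-ps1 (1.06, adjusted p = 0.00500, at 15.8 normalised reads or less) were the remaining 2 called higher, and Rpl10-ps3 was lower (-0.18, adjusted p = 0.0141). With the trend on GC content and length removed, Rpl36a-ps1 was not called (0.76, adjusted p = 0.0872).

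Not every identical copy behaved so. Rps23-ps1 had 1420 to 1840 normalised reads in vehicle males and 1343 to 2089 in vehicle females, Rpl10a-ps1 799 to 1022 and 827 to 1181, Rps16-ps2 410 to 660 and 503 to 827, and Rpl28-ps1 645 to 986 and 564 to 1002, in the same order. None of these 4 was called between vehicle males and vehicle females. Rpl36a-ps2 had 204 to 366 in vehicle males and 0 to 205 in vehicle females (adjusted p = 0.0857). Rps19-ps3, Rpl29-ps2 and Rpl10-ps6, stayed at 31.5 or less in every library and were not called here. Rps13-ps1 was above 0 in 6 of 60 libraries from 6 groups, at 30.9 to 419, one of them a vehicle male.

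**Figure D4:**
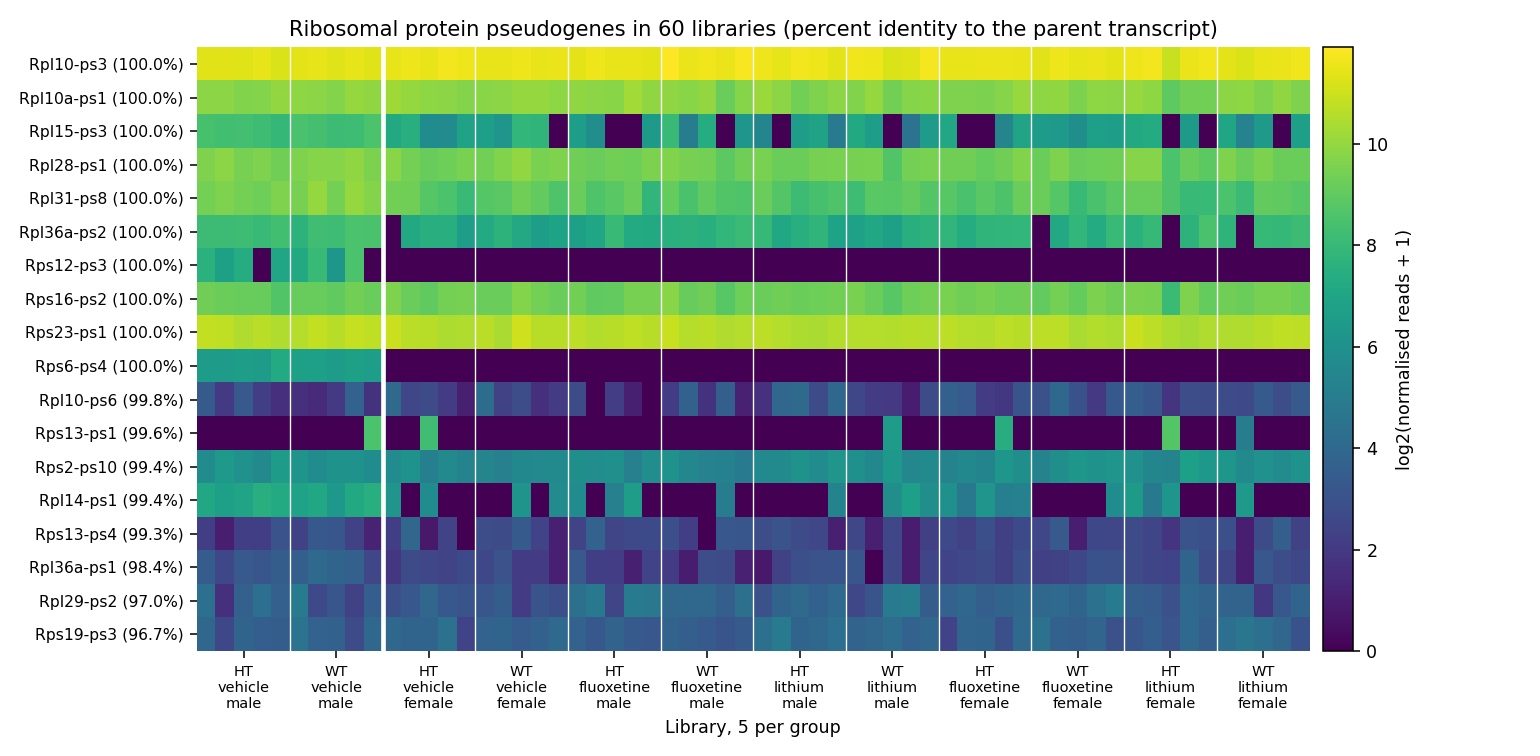
Log2(normalised reads + 1) of the 18 pseudogenes (rows, ordered by percent identity to the parent transcript) in 60 libraries (columns, 5 per group), with vehicle males left of the thick line. Rps6-ps4 is above 0 in 10 and Rps12-ps3 in 8 of the 10 vehicle males, and both are listed at 0 in the other 50 libraries.

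The drugs were compared with vehicle in females without these libraries. In WT females, fluoxetine against vehicle called 15 of 86 genes lower and 1 higher, where 19% and 20.9% of all genes were called (39.8% together), so the share called lower was close to that of all genes. The median log2 fold change was -0.13 over the 86 genes and 0.01 over all genes, and 70 of 86 were negative. Of the 15, 12 were among the 51 large subunit members and 3 among the 35 small subunit members. The median log2 fold change was -0.13 in each subunit. Rplp0 had 4995, 5177, 4719, 5084 and 4995 normalised reads in fluoxetine-treated WT females, against 5917, 5224, 7427, 5530 and 5694 in vehicle WT females (log2 fold change -0.24, SE 0.06, adjusted p = 0.00347). It was lower in every treated library than in any vehicle library. In HT females Rplp0 had 4943, 5192, 4968, 5250 and 4931 under fluoxetine, against 7475, 5762, 5942, 5327 and 5354 under vehicle, again with no overlap, at a log2 fold change of -0.23 that was not called (adjusted p = 0.138). Rplp0 was the 1 gene wholly lower in HT females, where 1.87% of all genes were wholly lower and 1.63% wholly higher.

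Rps9, a small subunit protein, had 3503, 3153, 2918, 2922 and 3207 normalised reads in fluoxetine-treated WT females, against 4100, 3733, 5190, 3655 and 3745 in vehicle WT females (log2 fold change -0.37, SE 0.10, adjusted p = 0.00535). Rpl7 had 3970, 4021, 3833, 3846 and 4099, against 4609, 4548, 5771, 4391 and 4436 in the same groups (-0.26, adjusted p = 0.00929). Neither overlapped, and WT vehicle replicate 3 was the highest in both. Rpl5 had 1036, 1110, 1010, 892 and 1175 under fluoxetine, against 1339, 1279, 1631, 1145 and 1174 under vehicle, which overlap (-0.32, adjusted p = 0.00833). Rpl22 had 1686, 1707, 1631, 1559 and 1683, against 2104, 2005, 2562, 1652 and 1892 (-0.29, adjusted p = 0.0113). Rps12 (-0.30) and Rpl39, a short protein of the exit tunnel (-0.33), were lower too, at adjusted p of 0.0328 and 0.0423. In all, 7 of 86 genes were wholly lower in the treated libraries (Rpl3, Rpl7, Rpl13, Rpl18, Rplp0, Rps9 and Rps15a) and none wholly higher, where 13.5% of all genes were wholly lower and 15.6% wholly higher.

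The 1 gene called higher was Rpl37rt, a retrocopy of Rpl37, with 601, 721, 478, 797 and 611 normalised reads under fluoxetine, against 579, 448, 441, 490 and 504 under vehicle in WT females (log2 fold change 0.37, SE 0.14, adjusted p = 0.0349). Among the pseudogenes Rpl29-ps2 was higher, with 15.3, 15.9, 13.1, 20.9 and 29.1, against 8.12, 10.3, 3.40, 7.51 and 6.28 (1.30, SE 0.45, adjusted p = 0.0192). Every fluoxetine library lay above every vehicle library, at low values, and 21.1% of its 31-base words occur in the parent.

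The olfactory bulb, which borders the prefrontal cortex, differed between these groups. All 7 bulb markers were lower in fluoxetine-treated WT females, and their mean log2 value was 4.07 to 7.37 there against 9.13 to 10.9 in vehicle WT females. With that mean as a covariate, 0 of 86 genes were called and the median log2 fold change was 0.02, while 0.00562% of all genes were called. Because the bulb values of these groups do not overlap, treatment and bulb content cannot be told apart by this fit. Without WT vehicle female replicate 3, which had a ribosomal protein share of 1.24%, 3 of 86 were called, and without WT vehicle female replicate 4, 25 were. Leaving out WT fluoxetine female replicate 3, 4 or 5 gave 9, 10 and 10. The share of all genes called without these libraries is not given here.

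**Figure D5:**
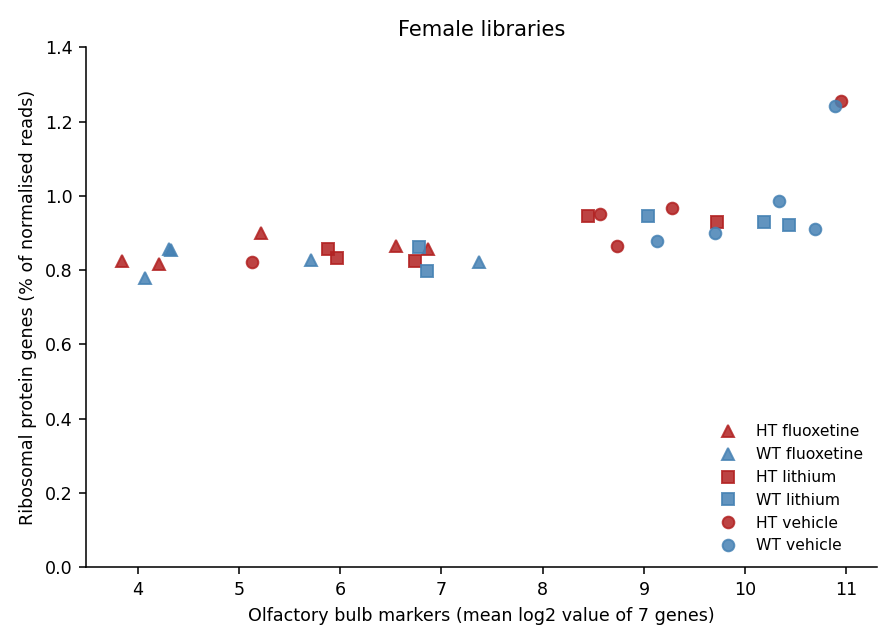
Share of normalised reads in the 86 ribosomal protein genes (percent) against the mean log2 value of 7 olfactory bulb markers in each of 30 female libraries, by treatment (shape) and genotype (colour). Fluoxetine-treated libraries lie at bulb values of 7.37 or less, and the 2 vehicle libraries at 1.24% and 1.25% have bulb values of 10.9.

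In HT females fluoxetine called 0 of 86 genes with limma, where 0% of all genes were called. At an unadjusted p below 0.05 there were 15, against 4063 of all 17781 genes. On the recovered reads edgeR called 0 of 86 and DESeq2 called 1 of 86, where they called 0 and 403 of all genes. The median log2 fold change was -0.11, and 74 of 86 were negative. The mean of the bulb markers was 3.85 to 6.86 in fluoxetine-treated HT females against 5.13 to 10.9 in vehicle HT females, and with it as a covariate the median log2 fold change was -0.01. Leaving out HT vehicle female replicate 4, which had the lowest bulb value of its group (5.13), gave 5 called, all lower. The share of all genes called in that fit is not given here, so the 5 cannot be set against it. Lithium called 0 of 86 in WT females (limma), where 0.00562% of all genes were called, with 7 at an unadjusted p below 0.05 (2012 of all genes), a median log2 fold change of -0.09 and 75 of 86 negative. In HT females it called 0 of 86 (limma), where 0.0169% of all genes were called, with 5 at an unadjusted p below 0.05 (1690 of all genes), a median of -0.08 and 80 of 86 negative. With the bulb covariate the medians under lithium were -0.04 in WT and -0.05 in HT females. Both edgeR and DESeq2 called 0 of the 86 genes in the lithium comparisons. Over all genes, edgeR called 1 in WT and 3 in HT females, and DESeq2 called 36 and 7. Within a genotype, the fluoxetine and lithium comparisons share their vehicle libraries. In these 3 comparisons 0 of 17 pseudogenes were called by limma, edgeR or DESeq2, with 0, 1 and 1 at an unadjusted p below 0.05.

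Fluoxetine against lithium compares the drugs without any vehicle library, averaged over genotype and sex. It called 9 of 86 genes higher and 3 lower, where 15.2% and 16.6% of all genes were called (31.8% together). The changes were small. Rpl37rt had 418, 628 and 797 normalised reads (lowest, median and highest) in the 20 fluoxetine libraries, against 373, 537 and 682 in the 20 lithium libraries (log2 fold change 0.22, SE 0.07, adjusted p = 0.0166). Rps4l had 287, 430 and 521, against 252, 364 and 493 (0.21, adjusted p = 0.0143). Rpl5 had 892, 1058 and 1228, against 1033, 1173 and 1302 (-0.15, adjusted p = 0.0172), and Rplp0 (-0.09, adjusted p = 0.0224) and Rpl7l1 (-0.09, adjusted p = 0.0159) were the other 2 lower. Rps10, Rps23, Rps15 and Rpl37 were 0.09 to 0.12 higher. In every case the 2 sets of 20 overlapped. All 7 bulb markers were lower under fluoxetine here too. With the bulb mean as a covariate 13 genes were higher and 0 lower, where 9.75% of all genes were called, and with quantile normalization 4 were higher and 4 lower. For quantile normalization the share of all genes called is not given here. Of the pseudogenes Rps19-ps3 was lower under fluoxetine (-0.43, SE 0.16, adjusted p = 0.0345).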

How the data were processed

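The authors deposited a table of signal values: for each gene, reads scaled by the size factor of the library. The submitters' processing notes name Salmon 0.11.2, R 3.6.0, DESeq2 1.19.11 and the build GRCm38, without saying what each was used for. A stranded TruSeq kit was used, per the labels. The annotation release and the handling of reads shared between copies were not given in the sources. All values were whole multiples of a step per column (100% within a tolerance of 1e-06), which gave back whole reads. Symbols and gene models are those of a GENCODE annotation of GRCm38, in which 18077 of 18088 identifiers had a symbol.

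Tests ran on log2(value + 1), in limma 3.58.1 under R 4.3.3, two-sided and with a mean-variance trend. A single model of all 60 libraries held a mean for each of the 12 groups, after a filter of 10 or more in 5 or more libraries. Adjustment was by Benjamini-Hochberg over the 17781 genes of a comparison, and an adjusted p below 0.05 made a call. Fold changes on this scale understate those of low genes. No label ties libraries to litters or batches, so the p-values measure the spread between these samples. On the recovered reads, edgeR 4.0.16 called 9491 genes and DESeq2 1.42.0 called 9528 between vehicle males and vehicle females. Other pseudocounts, filters, scalings, covariates and left-out libraries were also tried, and the code was tested on simulated data.

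The members, gene lists and comparisons were chosen with earlier results of these data known. The text names every pseudogene, the members with the largest called changes of each comparison, and paralogs and members of known role. Members named because their values did not overlap between groups, Rpl30 and Rps25 were chosen after their values were seen. Identity to a parent comes from local alignment to its transcripts. Values of some single genes are not reported here.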

Additional observations from a re-analysis of the deposited data

Results flagged for a closer look

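The difference between the sexes was not the same under vehicle as under the drugs. The interaction (male over female under vehicle, minus the same under fluoxetine and lithium, limma, adjusted p below 0.05) called 57 of 86 genes and 7 of 17 pseudogenes, where 45.8% of all genes were called, and it rests on the same 10 vehicle males. On the log2 scale it was -0.82 for Rpl10, -0.82 for Rps28, -0.80 for Rplp1, -0.76 for Rpl36, -0.75 for Rpl24 and -0.70 for Rpl37. It was positive for Rpl5 (0.28), Rps24 (0.27), Rpl23 (0.24) and Rpl11 (0.16). Among the pseudogenes it was -0.24 for Rpl10-ps3, 0.66 for Rps2-ps10, 0.70 for Rpl31-ps8 and 1.56 for Rpl36a-ps1. With the trend on GC content and length removed, Rpl5 (-0.03, adjusted p = 0.888), Rps24 (0.10, adjusted p = 0.313), Rpl23 (0.09, adjusted p = 0.298) and Rpl31-ps8 (0.54, adjusted p = 0.0617) were not called. For copies listed at 0 in many libraries only the adjusted p is given, 0.00138 for Rpl14-ps1, 2.64e-09 for Rps12-ps3 and 1.25e-39 for Rps6-ps4. For Rps12-ps3 and Rps6-ps4 the groups listed at 0 hold no spread, so these p-values do not measure the spread among vehicle males. On the recovered reads DESeq2 called Rps6-ps4 here and edgeR did not, and neither called Rps12-ps3.

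Single libraries stood far from the others of their set for the 7 values that follow, of 70 sets of values examined, where chance alone picks out about 1 in 20 (5%). The pseudogene share was 0.0357% in WT vehicle female replicate 3 and 0.0306% in HT lithium male replicate 1. Rpl5 had 2455 normalised reads in WT vehicle male replicate 4, against 1307 to 1719 in the other vehicle males. Rps6-ps4 had 153 in HT vehicle male replicate 5, against 90.1 to 108 in the others. Rplp0 had 7475 in HT vehicle female replicate 1, against 5327 to 5942. Rps9 had 5190 and Rpl7 had 5771 in WT vehicle female replicate 3, against 3655 to 4100 and 4391 to 4609 in the other 4.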

How the results depend on the processing

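Fluoxetine against vehicle in WT females was the comparison whose count moved most: 16 genes were called, 34 with quantile normalization, 26 with edgeR, 9 with only the compared groups in the fit and 0 with the olfactory bulb covariate. Over all genes limma called 39.8%, edgeR called 7236 of 17781 and the covariate fit called 0.00562%. For the other settings of this paragraph, left-out libraries and replicate blocks among them, the share of all genes called is not given. Without 1 library it gave 3 (without WT vehicle replicate 3) to 25 (without WT vehicle replicate 4). In HT females DESeq2 called 1, and leaving out 1 library gave 0 to 5. For the other comparisons leaving out 1 library gave 59 to 63 for fluoxetine against vehicle in males, 56 to 59 for lithium, 9 to 13 for fluoxetine against lithium, 58 to 62 for vehicle males against females, 56 to 59 for the sex difference between vehicle and drugs, and 0 elsewhere. With the replicate number as a block the counts were 20 for fluoxetine in WT females, 63 and 57 for fluoxetine and lithium in males, 12, 61 and 59 for the last 3 comparisons named, and 0 elsewhere. Correlations of same-numbered libraries ran from -0.27 to 0.46 over 30 pairs, 13 of them over 0.1, and in no comparison were all 5 over 0.1, so the numbers were not taken as pairs.

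Some members changed sign. With the bulb covariate, fluoxetine in WT females gave 0.066 for Rps15a, 0.015 for Rpl7, 0.030 for Rpl30 and 0.024 for Rps12, and in males 0.0042 for Rpl22. With the trend on GC content and length removed, fluoxetine in males gave 0.12 for Rps25, -0.066 for Rpsa and 0.040 for Rps27rt, and lithium in males gave 0.017 for Rps25, -0.11 for Rpsa and -0.039 for Rps19. In vehicle males against females it gave -0.11 for Rps25, 0.040 for Rpsa and -0.026 for Rpl30, and in the sex difference between vehicle and drugs 0.025 for Rpsa and -0.025 for Rpl5. Quantile normalization gave -0.00039 for Rpl4 in fluoxetine against lithium. The causes were not tested. Of the other values of the called members reported, 11794 kept their direction and call and 398 lost the call. The summed families and the fit without vehicle males were chosen after seeing the data. Counting error is largest for the copies near 10 normalised reads.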
